A study of Rattus norvegicus with 26 samples.

Results

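Rat hepatocytes isolated before transplantation were compared between a fetal sort labelled LAP+/OC2+ and adult cells. Both kinds were chosen by sample title, 4 libraries each, 8 of the 26 libraries of the series. The features were the 32517 nuclear ones of 32552, with the 35 on the mitochondrial chromosome left out. The series also holds 4 libraries each of 2 other immunopurified fetal sorts, LAP+ and LAP+/OC2-, and 10 of laser-captured liver tissue after transplantation, of which the 5 from adult host liver are used here to choose genes. The comparison asks how the LAP+/OC2+ fetal cells differ from adult hepatocytes before they are transplanted. The labels give a fetal or an adult stage and the cell type hepatocyte. They spell out neither LAP nor OC2, and strain, sex, age and treatment were not given in the sources used here. They call the libraries biological replicates without saying that each came from its own animal, so p-values measure the spread between these libraries. Both cell kinds were pelleted and their RNA purified on columns for the NEBNext Ultra RNA kit, per the protocols in the labels.

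In the adult liver, hepatocytes secrete most plasma proteins, make bile acids and glucose, and break down drugs and ammonia. In the fetal liver, hepatocytes and their precursors still divide and lie among blood-forming cells, since the fetal liver is the main site of blood formation for part of gestation. RNA of a fetal liver sort can therefore come from more than one kind of cell, and in bulk RNA fewer cells of a type and less RNA per cell cannot be told apart.

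The files identify features by Ensembl identifier and position, and the reference table used here paired 0 of 32552 identifiers with a symbol. Lists of liver, fetal and blood cell genes could not be applied, and the cell type label was not checked against markers. Genes are described here by position, exon length and level, and 2 in each direction are given by identifier. Positions are as deposited, on a genome build that was not given in the sources used here. Reference sequences could not be matched to these identifiers, so none is printed.

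Total counts were 7871347 to 8965763 in the LAP+/OC2+ libraries and 14163256 to 16248869 in the adult ones. Mitochondrial features held 78.6%, 73.7%, 57.6% and 38.9% of the counts in LAP+/OC2+ libraries 1 to 4, and 5.31% to 10.3% in the adult libraries. The means were 62.2% ± 17.9 and 7.73% ± 2.05 (SD, n = 4 each), against 4.94% ± 0.70 in LAP+/OC2- and 5.04% ± 0.98 in LAP+ libraries. The groups did not overlap. This left 1917734, 2331228, 3336294 and 5045098 nuclear counts in LAP+/OC2+ libraries 1 to 4, and 13084505 to 14923090 in adult libraries. The part of the mitochondrial share and of depth in the differences below was not tested as such. Counts of calls after thinning every library to the same total are given beside several results. Adult library 2 stood apart from the other adult libraries. Its Y chromosome features summed to 3.82 counts per 1000000 nuclear counts (CPM), against 123 to 145 CPM in the other adult libraries and 68.2 to 145 CPM in the LAP+/OC2+ libraries. Of 7663 tested genes that averaged 10 CPM or more in adult cells, 49 lay more than 4-fold below the other 3 adult libraries in library 2 and 36 more than 4-fold above them, against at most 2 in either direction in adult libraries 1, 3 and 4. LAP+ library 4 stood apart from the other LAP+ libraries in some of the genes highest in LAP+/OC2+ cells, as given below. LAP+ library 2 and LAP+/OC2- library 1 were low in the 50 genes most abundant in host tissue. These held 26.5% of nuclear counts in LAP+ library 2, against 31.3% to 34.7% in the other LAP+ libraries. In LAP+/OC2- library 1 they held 24.0%, against 31.6% to 31.7% in the other LAP+/OC2- libraries.

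**Figure D1:**
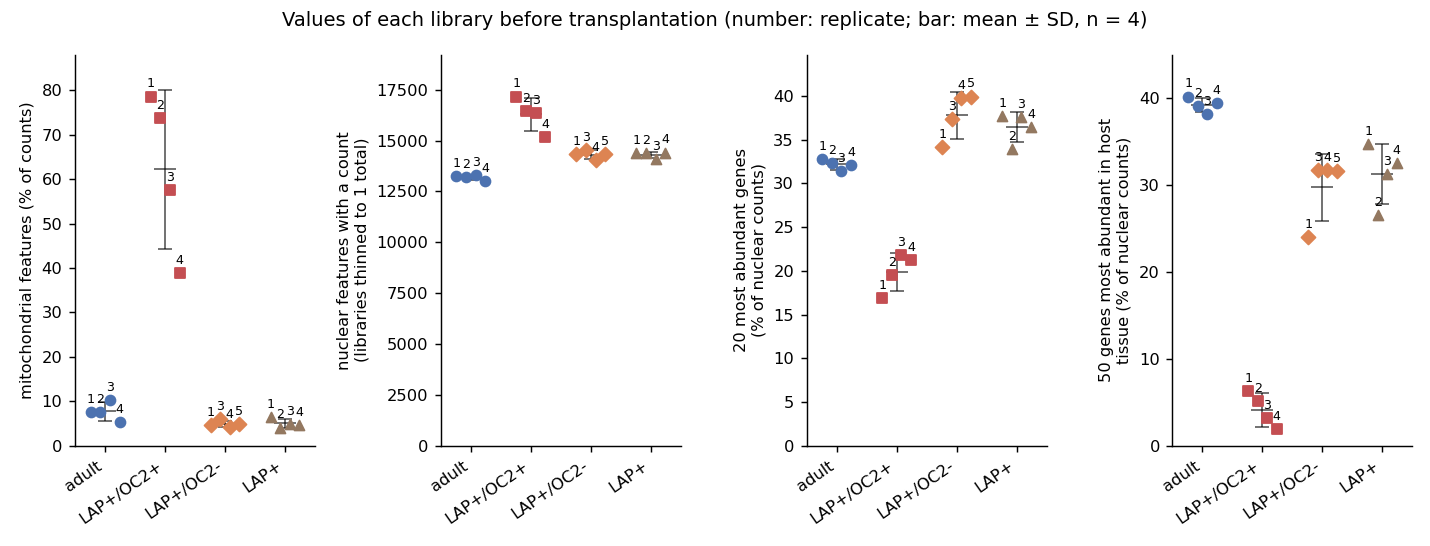
Values of the 16 libraries before transplantation, 1 point per library with its replicate number, bars at mean ± SD (n = 4). From left to right, the vertical axes give the mitochondrial share of counts, nuclear features with a count at equal depth, and the shares of nuclear counts held by the 20 most abundant genes and by the 50 genes most abundant in host tissue. The LAP+/OC2+ libraries lie apart from the adult ones in all 4 panels, and their mitochondrial share runs from 38.9% to 78.6%.

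Nuclear RNA of LAP+/OC2+ cells was spread over more genes than that of adult hepatocytes. At 1917734 nuclear counts per library, 17168, 16461, 16362 and 15175 features had a count in LAP+/OC2+ libraries 1 to 4, and 13038 to 13316 in adult libraries. All 4 LAP+/OC2+ libraries lay above all 4 adult ones, with means of 16292 ± 826 and 13202 ± 118 (SD, n = 4). The other fetal sorts lay between them, with 14313 ± 205 features in LAP+/OC2- and 14315 ± 146 features in LAP+ libraries (SD, n = 4). The top 20 nuclear genes of a library held 16.9% to 21.8% of nuclear counts in LAP+/OC2+ libraries and 31.4% to 32.8% in adult ones. The top 100 held 32.2% ± 1.68 and 49.5% ± 0.69 (SD, n = 4). Features shorter than 200 nt held 0.221% ± 0.047 and 0.123% ± 0.043 (SD, n = 4). Each of these 5 library values, the mitochondrial share included, differed at p = 0.029 (2-sided exact permutation test, adjusted p = 0.029 over 5), the smallest p that 4 against 4 libraries allow.

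Most nuclear genes differed between LAP+/OC2+ and adult cells. Of 14323 genes tested, 11059 (77.2%) were called at an adjusted p under 0.05, with 5632 higher (39.3%) and 5427 lower (37.9%) in the fetal sort (edgeR quasi-likelihood test, Benjamini-Hochberg adjustment over all nuclear genes tested). The median log2 difference of all genes tested was 0.02. The scaling of library sizes takes most genes as unchanged and centres them near 0. The median and the near-even split therefore follow in part from the scaling. With RLE size factors, which rest on the same assumption, the median was 0.11, with 5850 genes higher and 5220 lower. No alternative left the scaling out, so its part was not tested. At least 2-fold differences were called in 4681 higher (32.7%) and 4346 lower genes (30.3%). In 9785 genes (68.3%) the lowest library of one group lay above the highest of the other. At least 16-fold differences were called in 1124 higher and 832 lower genes, and at least 64-fold ones in 425 and 238. At least 256-fold differences were called in 107 higher and 23 lower genes. With every library thinned to the same total, 86 genes were at least 256-fold higher and 2 at least that much lower. In the same thinned counts, 107 features averaged at least 10 CPM in LAP+/OC2+ libraries with no count in any adult one, and 2 did the reverse. Of those 107, 88 had at least 1 adult count before thinning.

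**Figure D2:**
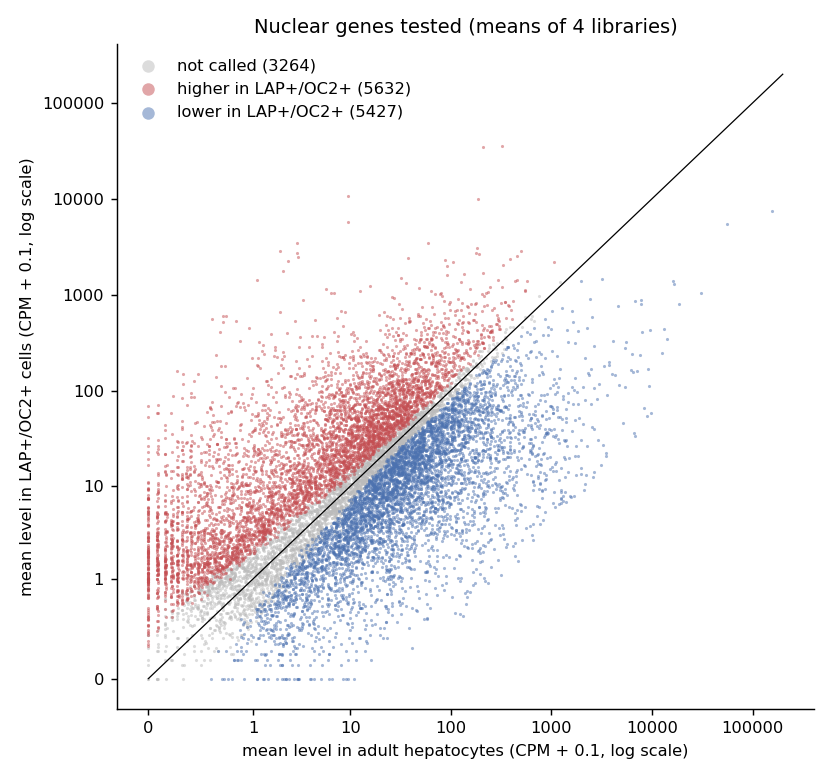
Mean level of each tested nuclear gene in adult hepatocytes (horizontal axis) and in LAP+/OC2+ cells (vertical axis), both in CPM + 0.1 on log scales, means of 4 libraries. The line marks equal levels. The 5632 genes called higher and 5427 called lower fill both sides, and the genes at the top of the adult axis lie below the line.

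LAP+/OC2+ libraries resembled each other, and the other fetal sorts, more than they resembled adult hepatocytes. Over 8579 genes, Pearson's r of log2(CPM + 1) between libraries thinned to the same total, a description across genes that are not independent replicates, was 0.90 to 0.97 among LAP+/OC2+ libraries and 0.94 to 0.97 among adult ones. Between LAP+/OC2+ and adult libraries it was 0.14 to 0.35. It was 0.48 to 0.68 between LAP+/OC2+ and LAP+/OC2- libraries and 0.46 to 0.70 with LAP+ libraries. The other sorts stood nearer to adult cells, at 0.62 to 0.71 for LAP+/OC2- and 0.60 to 0.70 for LAP+. Within LAP+/OC2+, the mean r with the adult libraries was 0.33 for library 1, 0.28 for library 2, 0.20 for library 3 and 0.15 for library 4. Library 1 also had the highest mitochondrial share and library 4 the lowest. Over 5827 genes at 10 CPM or more in both groups, the median SD of log2 CPM was 0.30 among LAP+/OC2+ libraries and 0.23 among adult ones.

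Of the genes given by identifier, ENSRNOG00000060320 had the largest fitted log2 difference in the higher direction. It lies on the minus strand at chr5:152230343-152247332 with 3520 nt of exon. It had 72.2, 124, 55.2 and 28.4 CPM in LAP+/OC2+ libraries 1 to 4 and no count in any adult library. LAP+/OC2+ libraries were all high, adult libraries all at 0, and the level was at least 451-fold higher, taking 3 counts per adult library as the floor (fitted log2 difference 12.60, SE 1.42, edgeR adjusted p = 3.2e-06). Of the other sorts, LAP+/OC2- had 0.153 to 1.02 CPM, and LAP+ had 0.501 to 6.09 CPM. LAP+/OC2+ cells were higher than both (log2 differences 6.55 and 5.07, edgeR adjusted p = 1.8e-05 and 6.7e-05). The second was ENSRNOG00000038133, on the minus strand at chr16:75517505-75518336 with 315 nt of exon. It had 53.5, 56.2, 54.1 and 48.0 CPM in LAP+/OC2+ libraries and no count in adult ones (log2 difference 12.21, SE 2.75, edgeR adjusted p = 0.0016). On unscaled totals it was at least 341-fold higher, again a smaller bound on the scaled CPM. The LAP+/OC2+ libraries lay close together. LAP+/OC2- libraries had 0.255 to 2.16 CPM (log2 difference 5.87, edgeR adjusted p = 0.0058). LAP+ libraries 1 to 3 had 0.618 to 0.906 CPM and library 4 had 66.7 CPM, and the difference from LAP+ did not pass (log2 1.62, edgeR adjusted p = 0.26). Both genes were chosen by their difference from adult cells. Their tests against the other sorts use the same LAP+/OC2+ libraries that chose them.

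In the lower direction, ENSRNOG00000040215 on the minus strand at chr9:4654294-4685383, with 3148 nt of exon, had 11.9, 3.28, 13.7 and 14.3 CPM in adult libraries 1 to 4 and no count in any LAP+/OC2+ library. At the LAP+/OC2+ depth this allows only a bound of at least 7.42-fold lower on unscaled totals (log2 difference -9.92, SE 1.27, edgeR adjusted p = 2.2e-05). Without adult library 2, the lowest of the adult libraries, the fitted log2 difference was -10.21. ENSRNOG00000015727, on the minus strand at chr1:261835992-261853495 with 2953 nt of exon, had 20.6, 57.4, 30.2 and 58.4 CPM in adult libraries and 2 counts in all LAP+/OC2+ libraries together, both in library 3 (0.438 CPM). Its log2 difference was -8.34 (SE 0.63, edgeR adjusted p = 2.6e-09). Both were near 0 in the other fetal sorts as well, at 0 to 0.203 CPM for the first and 0 to 0.638 CPM for the second, and LAP+/OC2+ cells did not pass the test against LAP+/OC2- (edgeR adjusted p = 0.37 and 0.13).

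The most abundant transcripts of adult hepatocytes were a small fraction of that level in LAP+/OC2+ cells. The 10 nuclear genes with the most CPM per kilobase of exon in adult cells were all lower in LAP+/OC2+ cells. Of all genes tested, 37.9% were called lower. The 10 had log2 differences from -7.65 to -3.36 and a median of -4.89. They were chosen by level in the same adult libraries, so their direction in this comparison is a description. The gene that led them lies at chr14:19176277-19191863, and it had 162400, 173361, 140694 and 153968 CPM in adult libraries 1 to 4. In LAP+/OC2+ libraries 1 to 4 it had 11440, 9673, 5705 and 3109 CPM, all far below the adult ones (log2 difference -4.40, SE 0.36, edgeR adjusted p = 7.9e-09). The other fetal sorts kept more of it, with a mean CPM of 107979 ± 16542 in LAP+/OC2- and of 108651 ± 15185 in LAP+ libraries (SD, n = 4), and LAP+/OC2+ was lower than both (log2 differences -3.85 and -3.86, edgeR adjusted p = 7.5e-08 and 7.6e-08). The second in total level, at chr8:111673547-111721333, had 53337 to 57680 CPM in adult libraries. It had 7376, 7538, 4273 and 2482 CPM in LAP+/OC2+ libraries, again without overlap (log2 difference -3.36, SE 0.34, edgeR adjusted p = 9.1e-08).

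A different pattern was seen at chr8:41657566-41661238. This gene had 8156, 2523, 8906 and 7492 CPM in adult libraries, lowest in library 2, and 51.3, 18.8, 39.4 and 25.97 CPM in LAP+/OC2+ libraries (log2 difference -7.65, SE 0.48, edgeR adjusted p = 2.7e-10). LAP+/OC2- libraries had 36.2 to 60.2 CPM, which did not differ from LAP+/OC2+ by the test (log2 difference -0.50, edgeR adjusted p = 0.24). LAP+ libraries had 0 to 0.0686 CPM, below LAP+/OC2+ cells (log2 difference 10.24, edgeR adjusted p = 3.1e-09). The gene was thus at a trace level in both sorts that were split by OC2 and at or near 0 in the LAP+ sort. Its neighbour at chr8:41701850-41702599 had the same order, with 317 to 1510 CPM in adult libraries. LAP+/OC2+ libraries had 1.30 to 10.3 CPM, LAP+/OC2- libraries 6.04 to 9.88 CPM, and all 4 LAP+ libraries no count. This order was not particular to chromosome 8. The gene at chr13:47572219-47591699 had mean levels of 6702 (adult), 36.0 (LAP+/OC2+), 50.4 (LAP+/OC2-) and 2.04 CPM (LAP+). The lower run on chromosome 5, described below, had mean sums of 6870, 37.9, 53.5 and 6.09 CPM in the same groups.

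The 10 genes with the most CPM per kilobase in LAP+/OC2+ cells shared none with the adult 10. All were higher than in adult cells, with log2 differences from 3.59 to 10.23 and a median of 7.07. Of all genes tested, 39.3% were called higher. The 10 were chosen by level in the same LAP+/OC2+ libraries, which the tests against the other groups reuse, so their direction is a description. They differed in their levels in the other fetal sorts. Some were at high levels in all 3 sorts. The gene at chr10:15602794-15603649 (556 nt of exon) had 22896, 23998, 42478 and 53537 CPM in LAP+/OC2+ libraries and 290 to 362 CPM in adult ones (log2 difference 6.79, SE 0.50, edgeR adjusted p = 1.9e-09). LAP+/OC2- libraries had 18226 to 32176 CPM and did not pass the test against LAP+/OC2+ (log2 difference 0.42, SE 0.39, edgeR adjusted p = 0.34). In LAP+ libraries it had 4107 to 20807 CPM, below LAP+/OC2+ (log2 difference 1.69, SE 0.40, edgeR adjusted p = 0.0013). Its neighbour at chr10:15589364-15590220 (557 nt) had 17578, 24638, 47086 and 48995 CPM in LAP+/OC2+ libraries and 182 to 240 CPM in adult ones. It was higher in LAP+/OC2+ cells than in LAP+/OC2-, at 11542 to 19450 CPM, and than in LAP+, at 2797 to 12849 CPM (log2 differences 1.08 and 2.34, edgeR adjusted p = 0.024 and 9.8e-05). The gene at chr1:168971274-168972725 (660 nt) had 7997 to 11413 CPM in LAP+/OC2+ and 180 to 210 CPM in adult libraries, with 12603 to 21987 CPM in LAP+/OC2- libraries and 2480 to 12616 CPM in LAP+ ones.

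Others were lower in the other fetal sorts as well as in adult cells, apart from LAP+ library 4 in several of them. The gene at chr16:75497832-75530517 (645 nt) had 7747, 17578, 10088 and 7034 CPM in LAP+/OC2+ libraries and 5.45 to 13.0 CPM in adult ones (log2 difference 10.11, SE 1.45, edgeR adjusted p = 1.5e-05). It had 5.98 to 41.7 CPM in LAP+/OC2- libraries (log2 difference 9.35, edgeR adjusted p = 3.7e-05). LAP+ libraries 1 to 3 had 31.1 to 46.5 CPM and library 4 had 1089 CPM, still below every LAP+/OC2+ library. The gene at chr8:117930546-117932518 (744 nt) had 3300, 5646, 3231 and 1741 CPM in LAP+/OC2+ libraries and 1.54 to 3.91 CPM in adult ones, the largest difference of the 10 (log2 10.23, SE 1.43, edgeR adjusted p = 1.2e-05). Here too LAP+ library 4 stood out, with 340 CPM against 12.5 to 15.99 CPM in the other 3. A pair of genes on chromosome 2, at chr2:190097554-190100276 and chr2:190073815-190074354, had 3409 to 8955 CPM and 1946 to 2958 CPM in LAP+/OC2+ libraries and at most 13.9 CPM in adult ones. They had at most 69.5 and 40.6 CPM in LAP+/OC2- libraries. In LAP+ libraries 1 to 3 they had at most 33.0 and 15.0 CPM, but 1617 and 930 CPM in LAP+ library 4, nearer to the LAP+/OC2+ libraries. The gene at chr18:56044369-56047316 (456 nt) had 2591, 3638, 3587 and 2577 CPM in LAP+/OC2+ libraries and 157 to 213 CPM in adult ones. It stood between in the other sorts, at 456 to 531 CPM in LAP+/OC2- libraries and 488 to 567 CPM in LAP+ ones, and LAP+/OC2+ was higher than each (log2 differences 2.62 and 2.55, edgeR adjusted p = 2.5e-09 and 3.3e-09). The single-exon gene at chr1:221158098-221158792 (695 nt) had 4254, 4598, 2845 and 2223 CPM in LAP+/OC2+ libraries, and 36.5 to 70.8 CPM in adult ones. For LAP+/OC2- libraries the range was 74.2 to 152 CPM, and for LAP+ libraries 56.8 to 124 CPM, with library 4 at 87.9 CPM. It was higher in LAP+/OC2+ than in every other group (log2 differences 5.86, 4.96 and 5.23, edgeR adjusted p = 2.4e-10, 3.9e-09 and 2.7e-09). The last of the 10, an 84-nt feature at chr1:215745981-215746064, was intermediate, with 651, 427, 175 and 92.2 CPM in LAP+/OC2+ libraries and 24.9 to 29.5 CPM in adult ones. The level in LAP+/OC2- libraries was 2770 to 3651 CPM.

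A list of liver genes chosen in other libraries was also mostly lower in LAP+/OC2+ cells. The 50 nuclear genes most abundant in host liver tissue were taken from the 5 host libraries, which were made from laser-captured tissue with another kit, so that they serve to choose genes and not to compare levels. Of these, 49 could be tested, 48 were lower and 1 was higher in LAP+/OC2+ cells, and the median log2 difference was -4.88 against 0.02 for all genes, of which 37.9% were called lower. The groups did not overlap for any of the 49, nor for 68.3% of all genes tested. Together the 50 held 6.27%, 5.21%, 3.22% and 1.89% of nuclear counts in LAP+/OC2+ libraries 1 to 4 and 38.3% to 40.2% in adult libraries, with 24.0% to 31.7% in LAP+/OC2- and 26.5% to 34.7% in LAP+ libraries. Within the sort, library 4 had the lowest level in 46 of the 49 genes and library 1 the highest in 40, in the order of their mitochondrial shares. The 1 gene higher than in adult cells was the single-exon gene on chromosome 1 described above. Against LAP+/OC2- cells, 44 of the 49 were lower in LAP+/OC2+ cells and 1 was higher (of all genes, 35.4% were lower and 31.8% higher). Their median log2 difference was -3.30. Against LAP+ cells, 43 were lower and 3 higher (34.7% and 32.8% of all genes), also with a median of -3.30.

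**Figure D3:**
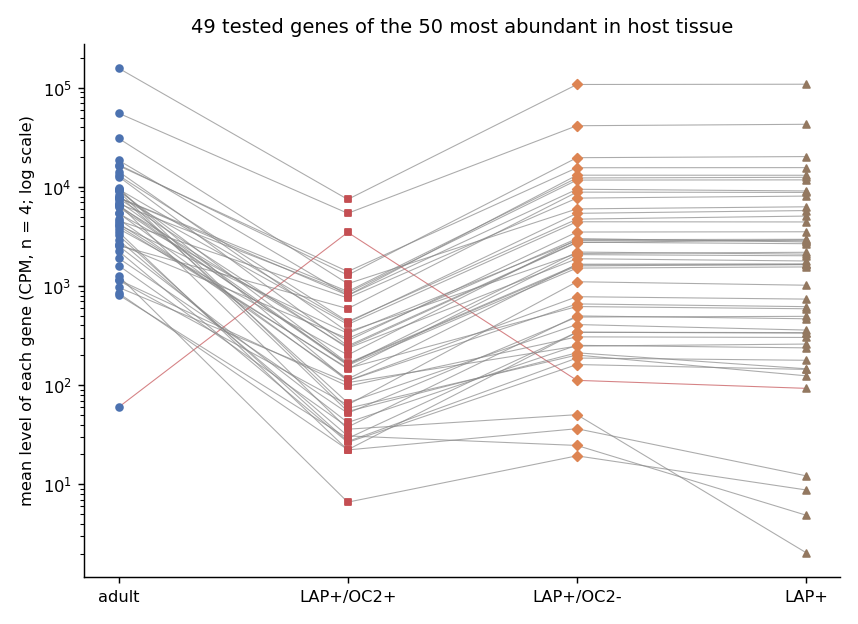
Mean level (CPM, log scale, n = 4 libraries) of the 49 tested genes of the 50 most abundant in host tissue, in the 4 groups before transplantation, with 1 line per gene. All but 1 gene (red line) fall from adult to LAP+/OC2+ cells, by a median log2 difference of -4.88, and most are at higher levels in both other fetal sorts.

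Genes at 100 CPM or more in host tissue were mostly lower in LAP+/OC2+ than in adult cells. Over all genes tested, 37.9% were called lower and 39.3% higher. Among 80 tested genes at 1000 CPM or more in host tissue, 75 were lower and 5 higher in LAP+/OC2+ cells (median log2 difference -4.63). Among 1214 genes at 100 to 1000 CPM, 911 were lower and 188 higher (median -2.04), and among 6232 at 10 to 100 CPM, 2975 were lower and 1960 higher (median -0.38). Among genes below that, which entered the test through their counts in cells before transplantation, the balance was the other way, and the shares follow in part from the filter. Of 5651 genes at 1 to 10 CPM, 2679 were higher and 1375 lower (median 0.73), and of 1002 at 0.1 to 1 CPM, 690 were higher and 87 lower (median 2.26, or 2.14 with bounds for the 86 without a count in 1 of the groups). In the lowest class, under 0.1 CPM, 110 of 144 were higher and 4 lower. The 50 genes most abundant in LAP+ fetal cells, 28 of them also in the host list, were mostly lower in LAP+/OC2+ than in adult cells as well, with 37 lower, 11 higher and a median of -3.15. Of those 50, 46 were lower and 1 higher in LAP+/OC2+ than in LAP+/OC2- cells (35.4% and 31.8% of all genes).

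Among short features that passed the low-count filter, more were higher than lower in LAP+/OC2+ cells. Of 230 tested features with under 200 nt of exon, 166 were higher and 19 lower than in adult cells. Of all genes tested, 39.3% were higher and 37.9% lower. The median log2 difference of the 230 was 2.89, or 2.48 with the 41 that had no count in 1 of the groups at their bounds. A feature could pass the filter through the fetal sorts alone, so these counts do not stand for all short features. Without a filter, 350 of 1844 were higher and 43 lower, against 6553 higher and 5752 lower of 23182 features of all lengths. There, a smaller share of the short features than of all features was called in either direction. Of 485 features with 200 to under 500 nt, 278 were higher and 110 lower (median 1.24). Each of the longer classes had a median between -0.17 and 0.15, close to that of all genes. Single-exon features of 200 nt or more were higher in 321 of 639 and lower in 165 (median 0.99), and those with 2 or more exon blocks higher in 5145 of 13454 and lower in 5243 (median -0.04). Against LAP+/OC2- cells 92 of the 230 were higher and 55 lower (31.8% and 35.4% of all genes), and against LAP+ cells 92 higher and 57 lower (32.8% and 34.7% of all genes). As a share of nuclear counts, short features went the other way there, at 0.398% ± 0.00989 in LAP+/OC2- and 0.430% ± 0.0299 in LAP+ libraries, above the LAP+/OC2+ share of 0.221% (SD, n = 4). How many short features could be tested depended on depth. With every library thinned to the same total, 59 were tested, 42 of them higher and 6 lower.

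**Figure D4:**
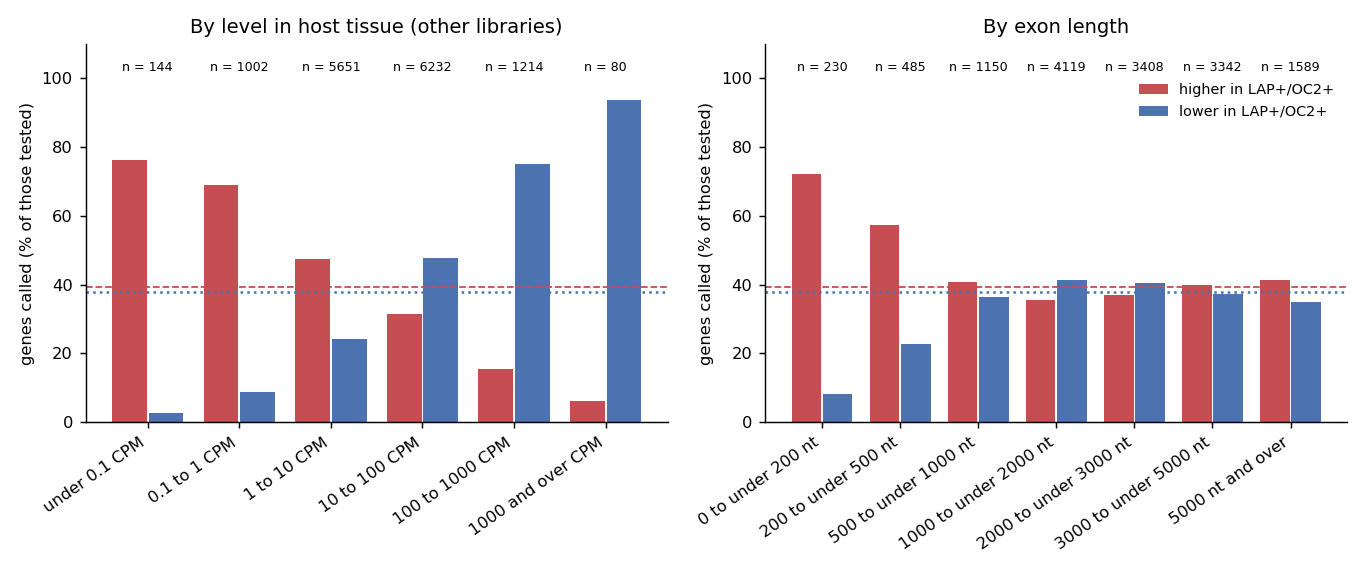
Share of tested genes called higher (red) and lower (blue) in LAP+/OC2+ than in adult cells, by their level in host tissue (left) and by exon length (right), with the number tested above each class. The dashed and dotted lines mark the shares over all genes, 39.3% higher and 37.9% lower. Genes entered the test through counts before transplantation, so the shares in the low host classes and the short classes depend on the filter. From 10 CPM up, the lower share exceeds the higher one, and the 2 shortest length classes have the largest higher shares on the right.

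Changed genes were spread over the autosomes and X. Over these 21 chromosomes, with the 7 tested Y features left out, the share of tested genes at least 2-fold higher ran from 27.9% on chromosome 18 to 37.8% on chromosome 17, and the share at least 2-fold lower from 25.0% on X to 34.7% on chromosome 18. Some changed genes lay side by side. Runs were at least 4 neighbouring tested genes, all at least 2-fold different the same way and no more than 500000 nt apart. They held 812 of the 4681 higher genes in 162 runs and 597 of the 4346 lower genes in 128 runs. Of all genes tested, 32.7% were at least 2-fold higher and 30.3% at least 2-fold lower. At such shares many runs arise without any grouping of genes, and whether there were more than that was not tested. Neighbouring features can overlap or share reads, and the strand setting of the counting was not given in the sources used here. The runs were built from the calls, so the direction of their genes in this comparison is a description. Calls against the other fetal sorts use the same LAP+/OC2+ libraries that chose the runs. Beside them, 31.8% of all genes were higher and 35.4% lower than in LAP+/OC2- cells, and 32.8% higher and 34.7% lower than in LAP+ cells.

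The longest run of higher genes held 19 at chr17:44527421-44841382, 16 of them with a single exon, with a median exon length of 393 nt. Their CPM summed to 78.4, 98.1, 116 and 93.1 in LAP+/OC2+ libraries and to 4.83 to 6.80 in adult ones, a median log2 difference of 4.27 (4.25 with the 1 gene without an adult count at its bound). All 19 were also higher in LAP+/OC2+ than in LAP+ cells and 17 higher than in LAP+/OC2- cells. Another run at lower coordinates on the same chromosome, 13 genes at chr17:43734461-43948223, behaved alike, with sums of 95.7 to 177 CPM in LAP+/OC2+ and 21.1 to 31.0 CPM in adult libraries, and 13 and 11 genes higher than in LAP+ and LAP+/OC2- cells. The 2 runs on chromosome 17 were low in level but higher in LAP+/OC2+ cells than in every other group before transplantation. Of 10 genes at chr20:4966817-5076586, which summed to 332 ± 86.6 CPM in LAP+/OC2+ and 69.9 ± 2.91 CPM in adult libraries (SD, n = 4), 7 were higher than in LAP+/OC2- and 8 higher than in LAP+ cells. After thinning to the same total, 6 of the 19, 5 of the 13 and 4 of the 10 genes were called higher than in adult cells.

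One higher run had the opposite relation to the other sorts. At chr6:133552821-133774678, 10 features, 7 of them under 200 nt, summed to 493, 502, 258 and 555 CPM in LAP+/OC2+ libraries and to 16.8 to 21.1 CPM in adult ones. The LAP+/OC2- sum was 1773 ± 328 CPM and the LAP+ sum 1994 ± 411 CPM (SD, n = 4), and 9 of the 10 were lower in LAP+/OC2+ than in each. LAP+/OC2+ cells thus lay between adult cells and the other fetal sorts there. A single gene held 82.7% of the LAP+/OC2+ sum. Of the 10, 4 were called higher than in adult cells after thinning, and also 4 with the 8 libraries alone.

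The runs with the highest summed levels, singled out after their values were seen, hold the most abundant genes described above. At chr10:15538872-15661331, 7 genes summed to 40747, 49025, 89904 and 102902 CPM in LAP+/OC2+ libraries, the largest sum of the higher runs, and to 506 to 634 CPM in adult libraries. The LAP+/OC2- libraries summed to 43052 ± 10268 CPM and LAP+ libraries to 17986 ± 11341 CPM (SD, n = 4), and 4 and 6 of the 7 genes were higher in LAP+/OC2+ than in these sorts. At chr1:168945449-169005190, 5 genes summed to 10028 to 14670 CPM in LAP+/OC2+ and 213 to 256 CPM in adult libraries, but the sum was 22108 ± 5468 CPM in LAP+/OC2- libraries (SD, n = 4), where 1 of the 5 genes was higher than in LAP+/OC2+ ones. At chr16:75338052-76110553, 8 genes summed to 10973, 21739, 13436 and 9670 CPM in LAP+/OC2+ libraries and 22.0 to 31.9 CPM in adult ones. There LAP+/OC2- libraries had 72.9 ± 54.5 CPM (SD, n = 4), and 7 of the 8 were higher in LAP+/OC2+. LAP+ library 4 alone summed to 3257 CPM, against 82.1 to 101 CPM in LAP+ libraries 1 to 3. The chromosome 10 and chromosome 1 runs were thus at high levels in all 3 fetal sorts, and the chromosome 16 run in LAP+/OC2+ libraries and, less so, in LAP+ library 4.

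**Figure D5:**
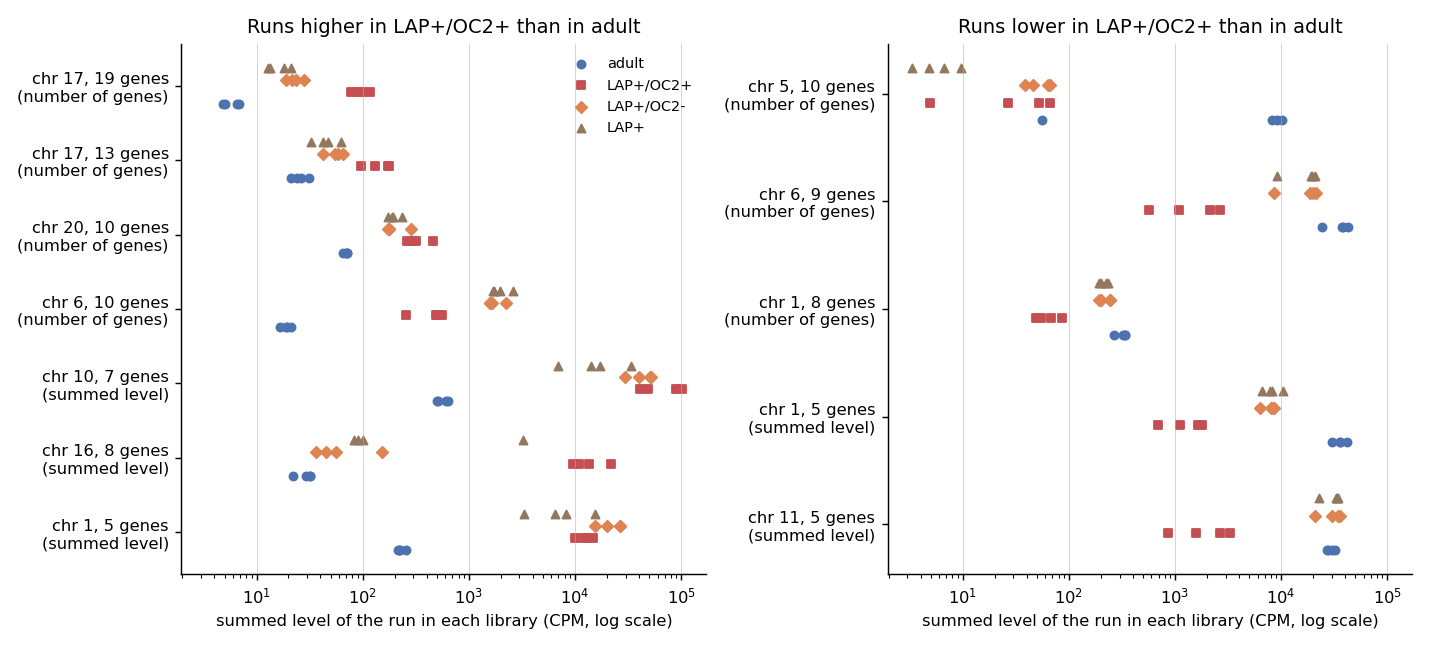
Summed level (CPM, log scale) of the genes of each run described, in each of the 16 libraries before transplantation, with 1 point per library. Runs higher in LAP+/OC2+ than in adult cells are on the left and lower ones on the right, chosen by number of genes or by summed level. On the left, adult libraries are lowest in every run. On the right, adult library 2 lies at 55.4 CPM in the chromosome 5 run, among the fetal libraries and far from the other adult ones.

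The longest run of lower genes depended on which adult library was read. At chr5:77245143-78131114, 10 tested genes of 45 features summed to 9048, 55.4, 10091 and 8287 CPM in adult libraries 1 to 4. In LAP+/OC2+ libraries 1 to 4 they summed to 67.1, 4.87, 52.8 and 26.7 CPM, so that adult library 2, the library low in Y features, lay inside their range and the others far above. With library 2 the adult mean was 6870 ± 4603 CPM (SD, n = 4), and without it 9142 ± 906 CPM (SD, n = 3). All 10 genes were called lower with and without library 2, but for 3 of the 10 alone did the groups not overlap. LAP+/OC2- libraries had a sum of 53.5 ± 13.7 CPM and LAP+ libraries of 6.09 ± 2.73 CPM (SD, n = 4). The median log2 difference of the 10 genes between LAP+/OC2+ and LAP+/OC2- cells was -0.50. Against LAP+ cells it was 5.86, with 3 of the 10 called higher and 1 lower.

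The other lower runs were low in all LAP+/OC2+ libraries against all adult ones. At chr6:127610243-128084163, 9 genes summed to 38439, 24048, 37836 and 42660 CPM in adult libraries, lowest in library 2, and to 2662, 2145, 1100 and 569 CPM in LAP+/OC2+ ones. The adult mean was 35746 ± 8089 CPM (SD, n = 4), or 39645 ± 2628 CPM (SD, n = 3) without library 2, and 7 of the 9 were also lower in LAP+/OC2+ than in LAP+/OC2- cells. At chr1:80549043-80617057, the sum of 5 genes was 30275 to 41993 CPM for adult libraries and 689 to 1790 CPM for LAP+/OC2+ ones. The other sorts were between, with LAP+/OC2- libraries at 7787 ± 1054 CPM and LAP+ libraries at 8241 ± 1552 CPM (SD, n = 4). At chr11:81421676-81757813, the sum of 5 genes was 29266 ± 2324 CPM for adult, 30402 ± 6643 CPM for LAP+/OC2- and 30889 ± 5311 CPM for LAP+ libraries (SD, n = 4), and 3324, 2678, 1589 and 859 CPM in LAP+/OC2+ libraries 1 to 4. All 5 genes of each of these last 2 runs were lower in LAP+/OC2+ than in both other fetal sorts. The chromosome 11 sum was near the adult one in the other fetal sorts, but its genes were not. The gene at chr11:81621283-81639952 had mean levels of 3247 (adult), 188 (LAP+/OC2-) and 178 CPM (LAP+), while the gene at chr11:81421676-81444621 had 2569, 8860 and 8797 CPM. A weaker run of 8 genes at chr1:189627972-190585734 had a sum of 316 ± 33.1 CPM for adult and 64.4 ± 16.6 CPM for LAP+/OC2+ libraries (SD, n = 4), and 4 of its genes were also lower than in LAP+/OC2- cells. After thinning, 4 of the 8 were called lower than in adult cells.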

How the data were processed

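The authors deposited unnormalized read counts for each feature, beside its exon coordinates and length, per the file headers. The submitters' processing notes name STAR 2.5.2b, Trimmomatic 0.36, bcl2fastq 2.17, Subread 1.5.2 and featureCounts. Genome build, annotation, strand setting and treatment of reads with several matches were not given in the sources used here, so overlapping, antisense or near-identical genes cannot be told apart.

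Groups were taken from sample titles. Mitochondrial features were removed before library sizes and scaling. The test was edgeR 4.0.16 under R 4.3.3, its robust quasi-likelihood test after filterByExpr and TMM scaling, with all 16 libraries before transplantation in 1 fit, Benjamini-Hochberg adjustment over the nuclear genes tested and a call at an adjusted p under 0.05. CPM values use TMM-scaled nuclear library sizes. Shares, host levels, Y sums and bounds use unscaled nuclear totals. A floor of 3 counts was 0.595 to 1.56 CPM in LAP+/OC2+ and 0.201 to 0.229 CPM in adult libraries, and floors cover counting error only. Thinning drew every library to 1917734 nuclear counts. Single library values went through exact permutation tests of scipy 1.17.1. Among 12 pairs of replicates, none agreed within counting noise, with chi-square values of 7.05 to 110 for each degree of freedom.

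Genes named by identifier are, among called genes that reach 10 CPM in the higher group and do not overlap between groups (3318 higher and 3943 lower), the 2 with the largest log2 difference in each direction. The 10 most abundant per kilobase of each group, and the 3 longest runs in each direction with ties, are given by position. The runs with the highest sums were added after values were seen. The members and lists were chosen with earlier results of these data known. The edgeR test was run on simulated data in which few genes were changed, equally in both directions. That setting does not cover a comparison in which most genes are called. Alternatives were DESeq2 1.42.0, limma-voom of limma 3.58.1, RLE size factors, 2 further filters on low counts, only the 8 libraries compared, thinned counts, mitochondrial features kept, a replicate block, and each library left out in turn.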

Additional observations from a re-analysis of the deposited data

Results flagged for a closer look

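Among 48 sets of 4 library values examined, 2 had a library far from the other 3 by Dixon's criterion. Chance flags about 1 in 20 sets of normally distributed values, a rate that does not hold for sparse counts. Adult library 2 had 3.82 CPM in Y chromosome features, against 123 to 145 CPM in the other adult libraries. For ENSRNOG00000015727, LAP+/OC2+ library 3 had 0.438 CPM, from 2 counts, and the other 3 had 0. A set with counts in 1 library alone always meets the criterion, so this flag carries no weight. The difference from adult cells was larger in LAP+/OC2+ than in LAP+/OC2- cells for ENSRNOG00000060320 (log2 6.55, edgeR adjusted p = 1.8e-05) and for ENSRNOG00000038133 (log2 5.87, edgeR adjusted p = 0.0058). These tests use the same LAP+/OC2+ libraries that chose both genes. Outside the nuclear features, mitochondrial features held 62.2% of counts in LAP+/OC2+ libraries, against 7.73% in adult ones.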

How the results depend on the processing

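Of 576 recomputed values, 555 kept their direction and call or stayed within the spread, and 0 reversed. The number of genes called was 11059 and ran from 8399 (thinned counts) to 12305 (no low-count filter). The 4 genes named by identifier kept their calls in every alternative that gave them an adjusted p. ENSRNOG00000038133 had one in 16 of 17 alternatives, with no call from DESeq2. ENSRNOG00000040215 also had one in 16 of 17, with no call from thinned counts. The number of features under 200 nt called higher, 166, became 350 of 1844 tested without a filter, 81 of 105 with the 8 libraries alone, 83 of 105 with the replicate block and 42 of 59 after thinning, since these settings test other numbers of features. The difference in the share of the most abundant genes was -12.32 percentage points for 20 genes and -16.08 for 50, and that of short features 0.0973 for a limit of 200 nt and 0.291 for 300 nt. Deviations of same-numbered LAP+/OC2+ and adult libraries correlated at 0.02 to 0.20, over 0.1 in 1 of 4 pairs. Of 4 LAP+/OC2+ libraries, 2 correlated best with their own number. LAP+/OC2+ library 2 had r = 0.20 with adult library 2 and -0.14 to -0.08 with the other adult libraries. Of unlike numbers, LAP+/OC2+ library 3 and adult library 4 reached 0.12. Both libraries numbered 2 were lowest of their group in Y features and in the chromosome 5 run. In the lower run on chromosome 6 this held for adult library 2 but not for LAP+/OC2+ library 2. LAP+ library 2 was also lowest of its group in Y features, at 89.0 CPM, and in that chromosome 6 run, but not in the chromosome 5 run. The main fit did not take the numbers as pairs, and whether same-numbered libraries were related was not tested. The replicate block called 9708 genes of 12736, against 9815 for the same 8 libraries without it. After thinning, 536 genes lay in higher runs and 392 in lower ones. In the chromosome 5 run, 4 of 10 genes were called after thinning, 6 with the 8 libraries alone and 5 with limma-voom. Some counts of runs and lists under further filters and tests were added after seeing the data. The LAP+/OC2+ depth of 1917734 to 5045098 nuclear counts limits bounds for genes absent there.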
